A study of Mus musculus with 20 samples.

Results

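The genes of the translation initiation complex eIF4F and its helpers were followed across bone marrow RNA of 20 mice, together with the exons that these genes include or skip. The 9 genes were *Eif4a1*, *Eif4a2*, *Eif4a3*, *Eif4g1*, *Eif4g2*, *Eif4g3*, *Eif4e*, *Eif4b* and *Eif4h*, chosen by symbol from the 37620 genes in the count table. They held 562 of the 554616 splice junctions, from which 132 of the 77979 cassette exon events were built. The set was put together around a pair of *Eif4a2* exons that moved in opposite directions in these mice, so the values of that gene are a description without a test. A 60 bp exon of *Eif4h* and an 87 bp exon of *Eif4g1* were also singled out because the study lists them for these mice, and their tests are not independent evidence.

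Recipient mice carried engrafted bone marrow from U2AF1(S34F)/rtTA or U2AF1(WT)/rtTA donors, in which doxycycline chow (625 ppm) induced the transgene for 7 days in all groups. Sudemycin D6, which targets SF3B1 of the spliceosome, or vehicle was infused intravenously for the last 5 of those days. Each genotype thus had 5 mice on vehicle and 5 on sudemycin D6. Donor marrow was pooled before transplantation, so recipients of a pool shared donors, and which mice of a genotype had the same pool is not given. The recipients were wild type, and RNA came from bulk marrow, which is a mixture of lineages. In such bulk RNA, fewer cells of a type and less RNA per cell cannot be told apart.

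eIF4F is the complex that brings the small ribosomal subunit to the capped end of an mRNA. Its cap-binding subunit is eIF4E, its scaffold is eIF4G1 or the related eIF4G3, and its RNA helicase is eIF4A1 or the close paralogue eIF4A2. eIF4B and eIF4H are cofactors that stimulate the helicase. eIF4G2 (DAP5) resembles the scaffold but lacks the site for eIF4E, and eIF4A3 is a helicase of the same family that works in the exon junction complex, which marks spliced junctions and takes part in nonsense-mediated decay (the removal of mRNAs with an early stop codon).

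Library depth was 41145892 to 62138138 gene counts per mouse. Markers of marrow were present, and 8 neutrophil markers summed to between 55700 and 134422 CPM (counts per 1000000 gene counts, with library sizes scaled by edgeR) per mouse. *U2af1* was higher in U2AF1(S34F) than in U2AF1(WT) mice, by 0.48 under vehicle and 0.35 under sudemycin D6 on the log2 scale (edgeR, FDR=0.000294 and 0.00416). The genotypes also differed in sex-linked RNA, since *Xist* had at least 39145 counts in each U2AF1(WT) mouse and at most 8 in each U2AF1(S34F) mouse. Together, 4 Y-linked genes had at most 4 counts in each U2AF1(WT) mouse and at least 10270 in each U2AF1(S34F) mouse. Genotype and this difference in sex-linked RNA cannot be told apart in any comparison of the genotypes below, nor in the interaction of genotype and drug.

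The first of the *Eif4a2* exons was the fourth of 11 exons of transcript Eif4a2-001, 140 bp long and coding throughout (NCBIM37, chr16:23109193-23109332, plus strand). It is printed whole because it holds the codons of the ATP-binding Walker A motif of the helicase, which are in capitals.

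Eif4a2 exon of 140 bp: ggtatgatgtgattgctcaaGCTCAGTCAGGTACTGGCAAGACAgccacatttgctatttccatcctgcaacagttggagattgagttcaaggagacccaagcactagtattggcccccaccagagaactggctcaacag

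Skipping these 140 bases shifts the reading frame. Read from the start codon of Eif4a2-001, the transcript without the exon reached a stop after 96 codons instead of 407, at 648 bases before its last exon junction. The second exon (chr16:23112424-23112530) lies near the other end of the gene, is absent from Eif4a2-001 and is called the late exon here. Its inclusion put a TAG stop after 362 codons, 97 bases before the last junction, and the 1 annotated transcript that holds this exon with that end is classed as a target of nonsense-mediated decay. Another annotated transcript ends in this exon instead. There the same stop, after 362 codons, lies in the last exon and has no junction after it. The first window below shows the start of this exon with the stop in capitals, and the second shows its downstream end with the first 2 intronic bases of each of the 3 donor sites in use in capitals.

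Eif4a2 late exon, chr16:23112412-23112441: taaaaaatacaggagtcgaTAGcggcagtt
Eif4a2 late exon, chr16:23112519-23112544: aataaagaGCgaGTcgGTatttatat

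The 140 bp exon was included less often with the drug and less often in U2AF1(S34F) mice. Ψ, the fraction of transcripts with the exon as judged from junction reads, was 0.759, 0.758, 0.684, 0.802 and 0.723 in the 5 vehicle-treated U2AF1(WT) mice. Under sudemycin D6 it was 0.723, 0.601, 0.646, 0.708 and 0.551 in U2AF1(WT) mice. The vehicle-treated U2AF1(S34F) mice had 0.590, 0.641, 0.751, 0.653 and 0.597. The sudemycin-treated U2AF1(S34F) mice were lowest, with 0.496, 0.584, 0.534, 0.515 and 0.619. The group means were 0.745 ± 0.0442 (SD, n=5), 0.646 ± 0.0722, 0.647 ± 0.0644 and 0.550 ± 0.0505 in that order. The differences in mean Ψ were -0.0993 and -0.0969 for the drug in U2AF1(WT) and U2AF1(S34F) mice, and -0.0986 and -0.0962 for the genotype under vehicle and sudemycin D6. Neighbouring groups overlapped, but every sudemycin-treated U2AF1(S34F) mouse lay below every vehicle-treated U2AF1(WT) mouse.

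The late exon went the other way. Its Ψ was 0.563, 0.545, 0.550, 0.504 and 0.526 in vehicle-treated U2AF1(WT) mice. With sudemycin D6 the U2AF1(WT) mice had 0.693, 0.728, 0.713, 0.640 and 0.691. U2AF1(S34F) mice had 0.629, 0.596, 0.606, 0.647 and 0.597 on vehicle, and 0.775, 0.726, 0.790, 0.751 and 0.688 on the drug. The means were 0.538 ± 0.0229, 0.693 ± 0.0332, 0.615 ± 0.0222 and 0.746 ± 0.0406 (SD, n=5). The drug difference was 0.156 in U2AF1(WT) and 0.131 in U2AF1(S34F) mice, and the genotype difference was 0.0775 under vehicle and 0.0531 under sudemycin D6. The treated and untreated mice of each genotype did not overlap, nor did the genotypes under vehicle, whereas the genotypes under sudemycin D6 did.

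**Figure D1:**
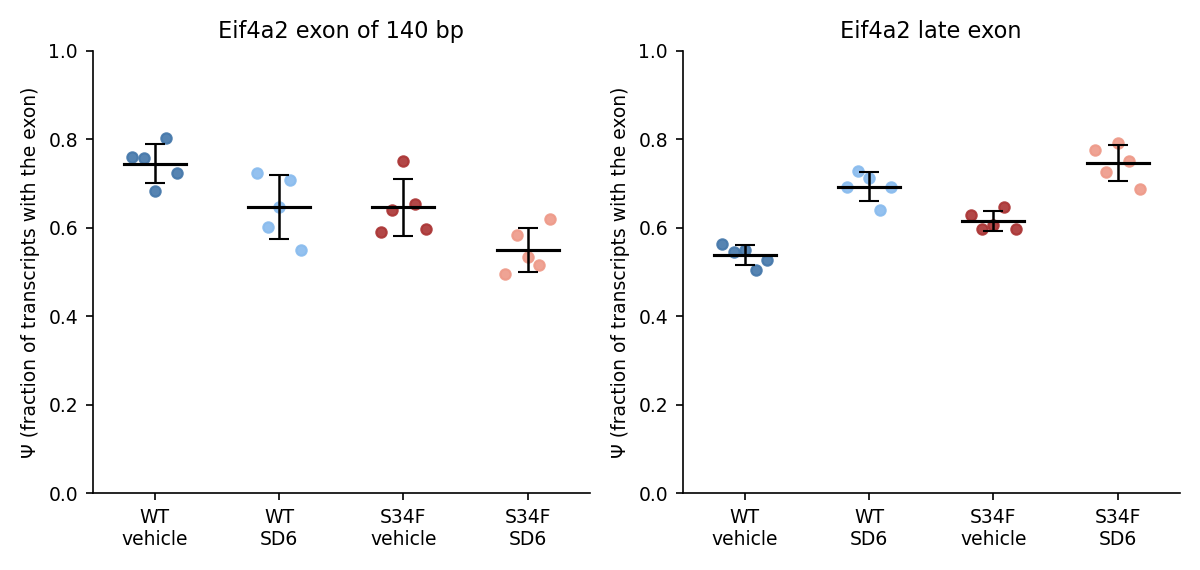
Ψ of the 2 *Eif4a2* exons, the fraction of transcripts that include each exon (vertical axis, 0 to 1), in each mouse of the 4 groups (SD6, sudemycin D6). Points are mice, bars the mean and whiskers the SD (n=5). The 140 bp exon falls from a mean of 0.745 in vehicle-treated U2AF1(WT) to 0.550 in U2AF1(S34F) mice on the drug, while the late exon rises from 0.538 to 0.746.

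The junctions behind these fractions moved unequally. Scaled to gene counts, the junction into the 140 bp exon had 13.9 ± 1.58 CPM (SD, n=5) on vehicle and 9.84 ± 1.55 on sudemycin D6 in U2AF1(WT) mice, beside 12.8 ± 2.18 and 7.64 ± 0.552 in U2AF1(S34F) mice. The junction that skips that exon stayed closer, at 5.60 ± 1.09 and 6.25 ± 1.16 in U2AF1(WT), beside 7.85 ± 2.13 and 7.66 ± 1.46 in U2AF1(S34F) mice. For the late exon it was the skipping junction that fell with the drug, from 10.2 ± 1.36 to 5.09 ± 0.439 in U2AF1(WT) and from 6.97 ± 0.627 to 3.67 ± 0.862 in U2AF1(S34F) mice. The junction into the late exon had 20.7 ± 2.05 and 20.02 ± 2.10 in U2AF1(WT), and 19.2 ± 3.44 and 18.4 ± 1.11 in U2AF1(S34F) mice. Junctions of the full-length transcript thus had lower means with the drug at both exons, while the means of the junctions that skip the 140 bp exon or enter the late exon differed by less than 1 SD of either group.

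**Figure D2:**
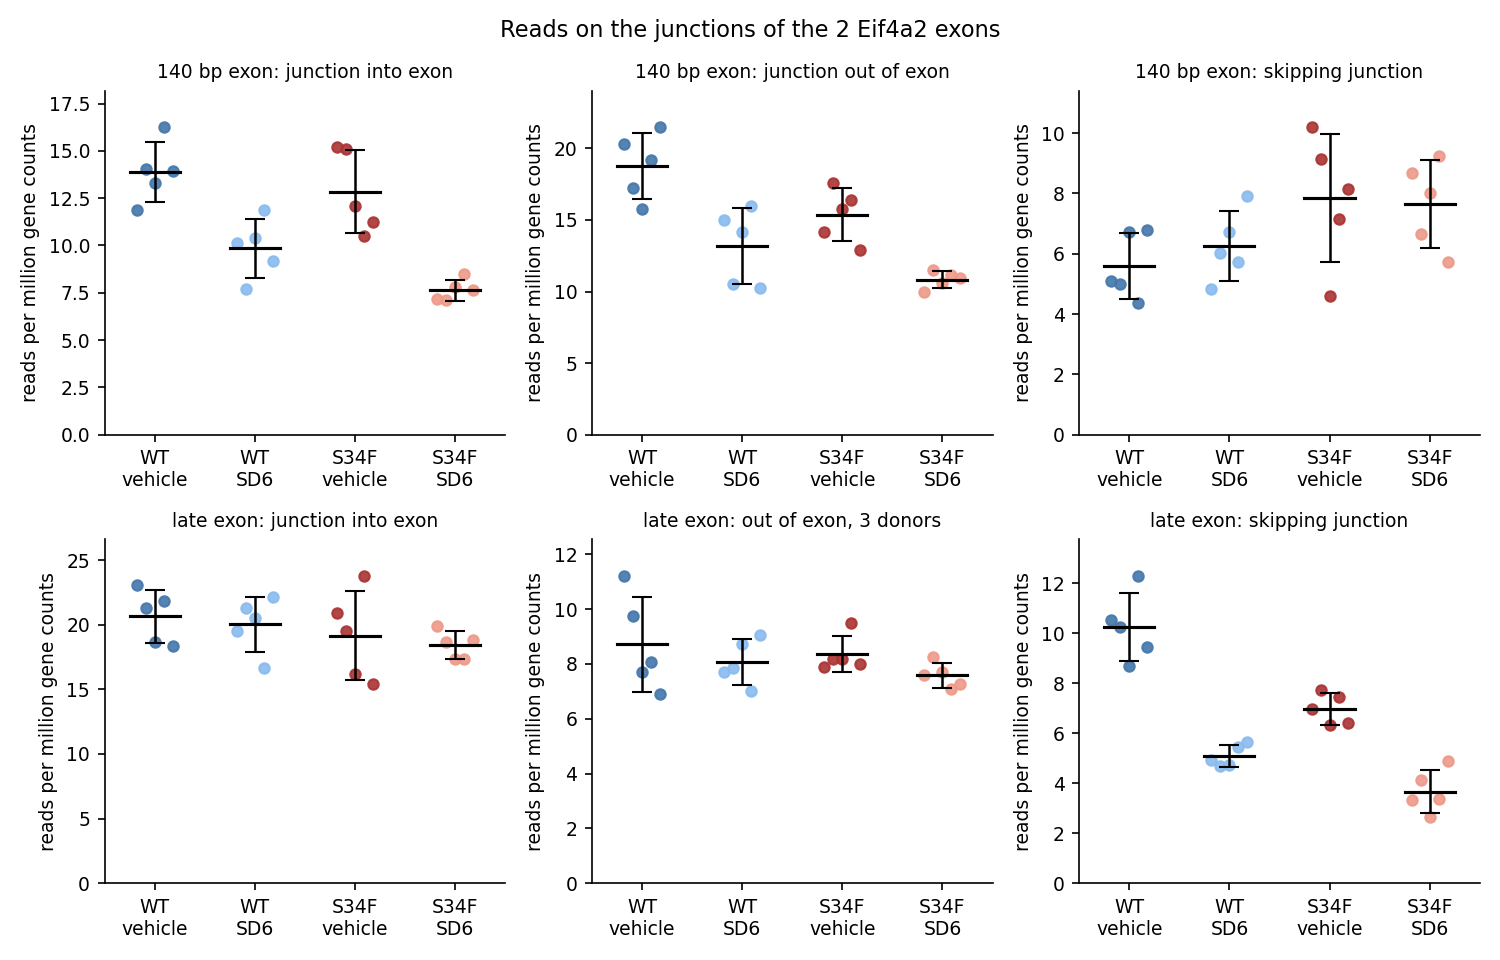
Reads in CPM (scaled to gene counts, vertical axes, from 0) on the junctions into, out of and around the 140 bp exon (top) and the late exon (bottom) of *Eif4a2* in each mouse, with the mean and SD (n=5) in black. With sudemycin D6 (SD6) the junctions into and out of the 140 bp exon and the junction that skips the late exon have lower means, at 9.84, 13.2 and 5.09 in U2AF1(WT) mice against 13.9, 18.8 and 10.2 under vehicle.

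The downstream end of the late exon was not fixed. Besides its annotated donor, a donor 4 bases further on that is absent from the annotation had 186 to 357 reads in each of the 20 mice, more than the 106 to 204 reads of the annotated one, and it makes an exon of 111 bp. Of the reads that left the exon it took 63.4% ± 3.53 (SD, n=5) on vehicle and 59.4% ± 5.56 on the drug in U2AF1(WT), and 59.1% ± 4.50 and 59.8% ± 3.84 in U2AF1(S34F) mice. The third donor, which makes an exon of 103 bp, had at most 16 reads in a mouse. With any of the 3 donors the stop codon is the same. Reads into the exon outnumbered those out of it, and between 55.6% and 59.6% of them in the group means had no counterpart at the downstream end, where another annotated transcript continues without splicing. Reads into the exon do not tell that transcript, in which no junction follows the stop, from the spliced forms. Mean Ψ of vehicle- and sudemycin-treated U2AF1(WT) mice was 0.589 and 0.733 with all 3 donors counted, 0.669 and 0.796 from the upstream junction alone, and 0.458 and 0.612 from the downstream junctions alone.

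*Eif4a2* as a whole had 304.5, 277.2, 354.7, 308.8 and 334.4 CPM in vehicle-treated U2AF1(WT) mice. It had 251.7, 214.7, 272.9, 248.1 and 289.2 in sudemycin-treated U2AF1(WT) mice. U2AF1(S34F) mice had 317.4, 323.1, 253.8, 262.7 and 250.5 on vehicle, and on the drug 252.7, 219.5, 236.8, 236.4 and 256.6. The log2 difference with the drug was -0.33 (standard error 0.10) in U2AF1(WT) and -0.23 (standard error 0.08) in U2AF1(S34F) mice, and the groups overlapped in both. As a share of *Eif4a1* and *Eif4a2* together, per kilobase of exon, *Eif4a2* made up 38.5% ± 4.19 (SD, n=5) on vehicle and 34.6% ± 3.69 on the drug in U2AF1(WT), and 35.9% ± 1.79 and 28.9% ± 1.51 in U2AF1(S34F) mice. All 5 sudemycin-treated U2AF1(S34F) mice were below all vehicle-treated mice on this measure. The genes whose level most resembled that of *Eif4a2* over the 20 mice were *Gm17311*, *Cyp11a1* and *Ddx5*, with Pearson's r of 0.93, 0.92 and 0.88 of log2 CPM among 15392 genes. Within the groups r was 0.86, 0.83 and 0.72, and the mice share libraries and normalization.

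The other helicases and the scaffolds were compared next. Levels per kilobase of exon put *Eif4a1* first in vehicle-treated U2AF1(WT) mice, at 95.0 ± 9.07 CPM per kb (SD, n=5), followed by *Eif4h*, *Eif4g2* and *Eif4b* at 83.2 ± 7.75, 79.4 ± 1.60 and 74.4 ± 7.87. Each of these 4 overlapped its neighbour. *Eif4a2* at 59.2 ± 5.56 lay apart from *Eif4b* above it and *Eif4g1* below it. *Eif4g1* (39.9 ± 2.31) and *Eif4a3* (33.9 ± 3.41) overlapped, and *Eif4g3* (22.5 ± 3.28) and *Eif4e* (14.4 ± 0.814) came last without overlap. In U2AF1(S34F) mice *Eif4g3* was in the last place, at 14.5 ± 1.97 under vehicle and 17.2 ± 0.458 under sudemycin D6, and overlapped *Eif4e*. Length here was that of all annotated exons of a gene together, such as 9931 bp for *Eif4g2* and 2428 bp for *Eif4h*. The order of genes and the *Eif4a2* share above therefore depend on the annotation, and may not be the order of transcript numbers.

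**Figure D3:**
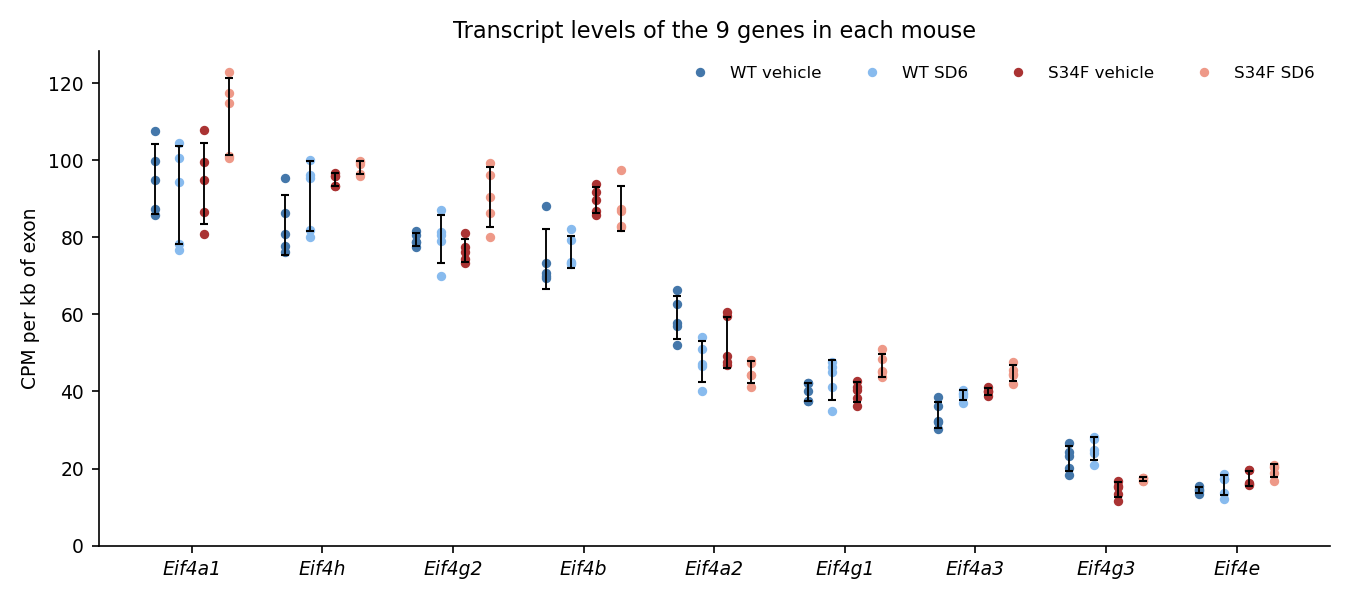
Level of each of the 9 genes in CPM per kilobase of annotated exon (vertical axis, from 0), with genes ordered by their mean in vehicle-treated U2AF1(WT) mice. Points are mice, coloured by group (SD6, sudemycin D6), and whiskers the mean ± SD (n=5). *Eif4a1* leads at 95.0 in vehicle-treated U2AF1(WT) mice, and the U2AF1(S34F) mice lie lower than the U2AF1(WT) mice in *Eif4g3*.

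The genotypes were compared under vehicle and again under sudemycin D6, to see how they differ with and without the drug. Outside *Eif4a2*, 5 of 8 genes passed FDR<10% under vehicle, where 39.5% of all genes tested did, and 5 of 8 under sudemycin D6, where 36.8% did. *Eif4g3* was the one that fell (19.8% and 19.6% of all genes tested were lower), and its difference was the largest of the 8 in size in both comparisons. It had 269.3, 201.9, 256.6, 292.6 and 223.6 CPM in vehicle-treated U2AF1(WT) mice against 148.9, 128.5, 185.0, 169.6 and 168.2 in U2AF1(S34F) mice on vehicle. Under sudemycin D6 it had 231.4, 304.1, 275.1, 265.9 and 311.9 against 193.9, 193.2, 194.6, 185.3 and 184.2. The genotypes did not overlap under either treatment. The log2 fold change was -0.65 (standard error 0.12, FDR=0.00182, edgeR) under vehicle and -0.55 (standard error 0.08, FDR=0.000771) under sudemycin D6.

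*Eif4a3*, *Eif4e* and *Eif4b* were higher in U2AF1(S34F) mice under both treatments. *Eif4a3* rose by 0.23 (standard error 0.08, FDR=0.0363) under vehicle and 0.19 (standard error 0.06, FDR=0.0308) under sudemycin D6 on the log2 scale, without overlap of the mice in either. *Eif4e*, the cap-binding subunit, had 41.4, 42.4, 40.7, 38.3 and 44.7 CPM in vehicle-treated U2AF1(WT) and 56.6, 56.7, 46.4, 46.7 and 45.1 in U2AF1(S34F) mice on vehicle, all above the highest U2AF1(WT) mouse. That is a log2 fold change of 0.26 (FDR=0.0257, edgeR). Under sudemycin D6 it was 0.30 (FDR=0.0716) with overlap, and not called without sudemycin-treated U2AF1(S34F) mouse 2, 10 or 12 or U2AF1(WT) mouse 8 (FDR of up to 0.143). *Eif4b*, the helicase cofactor, rose by 0.26 (FDR=0.0341) under vehicle, where the mice overlapped through 1 U2AF1(WT) mouse, and by 0.19 (FDR=0.0625) under sudemycin D6 without overlap, a call lost without U2AF1(S34F) mouse 10 or 12 or U2AF1(WT) mouse 10 (up to 0.140). *Eif4h* passed under vehicle (0.18, FDR=0.0956), but not without U2AF1(S34F) mouse 1, 5, 7 or 11 or U2AF1(WT) mouse 1, 3 or 5 (FDR of up to 0.215). *Eif4a1* passed under sudemycin D6 (0.29, FDR=0.0706), but not without U2AF1(S34F) mouse 2, 10 or 12 or U2AF1(WT) mouse 8 (up to 0.146). Neutrophil markers were counted as well. Of 8, 3 were higher in U2AF1(S34F) mice under vehicle and 0 lower, where 19.7% and 19.8% of all genes tested were. In either direction 37.5% were called, beside 39.5% of all genes tested. Their sum ran from 60040 to 68322 CPM in U2AF1(WT) and from 82268 to 134422 in U2AF1(S34F) mice. Under sudemycin D6 2 were higher and 0 lower (17.2% and 19.6% of all genes tested). There the sums overlapped, at 55700 to 97295 CPM in U2AF1(WT) and 70243 to 116105 in U2AF1(S34F) mice. Some markers of other lineages were called too. Under sudemycin D6 4 of 8 B cell markers were lower and 0 higher in U2AF1(S34F) mice, where 19.6% and 17.2% of all genes tested were. Under vehicle 0 of the 8 B cell markers and 0 of 8 erythroid markers were called, where 39.5% of all genes tested were. The part of any markers in the differences of these genes was not tested.

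The drug was compared with vehicle within each genotype. In U2AF1(WT) mice 0 of the other 8 genes passed FDR<10% in edgeR, where 3.07% of all genes tested did. At an unadjusted p under 0.05 it was 1, *Eif4a3*, at a log2 fold change of 0.18, and DESeq2 called 0 of the 8. In U2AF1(S34F) mice 3 of 8 passed and all rose, where 10.8% of all genes tested passed and 4.94% rose. *Eif4g1*, the main scaffold, had 291.4, 309.0, 298.0, 260.9 and 277.6 CPM under vehicle and 350.3, 316.3, 325.6, 369.3 and 328.1 under sudemycin D6. The treated mice were all above the untreated ones, and the log2 fold change was 0.23 (standard error 0.07, FDR=0.0577, edgeR). *Eif4a3* rose by 0.16 (FDR=0.0719) without overlap, and *Eif4g2*, the scaffold relative without an eIF4E site, rose by 0.24 (FDR=0.0671) with overlap. These 3 calls were close to the threshold. At FDR<5% the count was 0 of the 9 genes in edgeR. Leaving out 1 mouse at a time gave between 0 and 5 calls among the 9 (*Eif4a2* included), with 0 without sudemycin-treated mouse 2 or 10 or vehicle-treated mouse 11, and FDR of up to 0.132 for *Eif4g1*, 0.139 for *Eif4a3* and 0.156 for *Eif4g2*. The drug effect differed between genotypes at FDR<10% for 0 of the 9 genes in edgeR and in DESeq2 (0.013% of all genes tested in edgeR), with 2 at an unadjusted p under 0.05. Those were *Eif4a1*, with an interaction of 0.31 (standard error 0.14), and *Eif4g2*, with 0.24 (standard error 0.11), with FDR of 0.654 and 0.634.

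**Figure D4:**
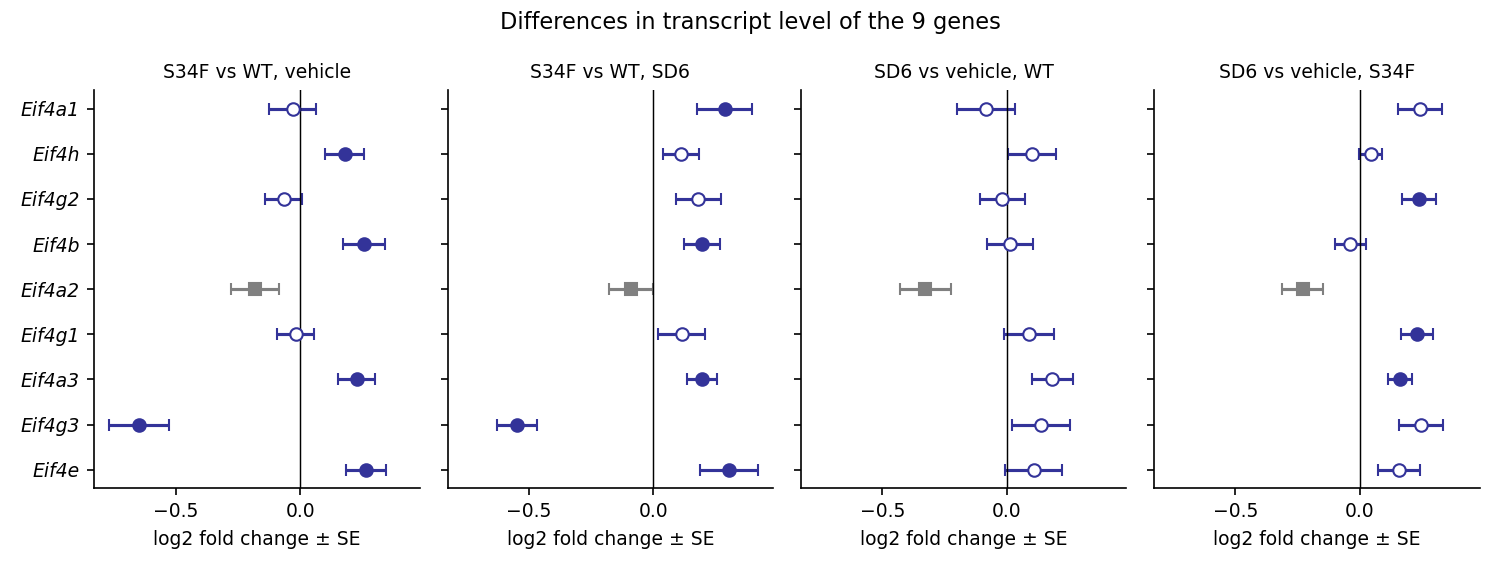
Log2 fold change in level ± standard error (horizontal axes) of the 9 genes in the 4 comparisons (SD6, sudemycin D6). Filled circles passed FDR<10% in edgeR, open circles did not, and grey squares are *Eif4a2*, shown without a test. *Eif4g3* lies at -0.65 and -0.55 in the genotype comparisons, and 0 of the 8 circles are filled for the drug in U2AF1(WT) mice.

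Exons of the other 8 genes were tested in the same 4 comparisons. The call was FDR<10% in edgeR with a change in Ψ of more than 1%. Under vehicle 3 of 90 events differed between genotypes, where 1.22% of all events tested did. Under sudemycin D6 it was 3 of 87, against 1.14%. The drug went with 0 of 83 called events in U2AF1(WT) mice (0.423% of all events tested), where 11 had an unadjusted p under 0.05 and limma on Ψ called 0, and with 1 of 96 in U2AF1(S34F) mice (0.518%). The interaction called 0 events of the 9 genes in edgeR and in limma (0.0112% of all events tested in edgeR), with 6 at an unadjusted p under 0.05. These calls depended on the model of the spread: limma on Ψ called 0 events of the 9 genes in both genotype comparisons, and edgeR with an estimated dispersion called 0 in all 4. Exact permutation tests of Ψ in 6 exons and 4 comparisons gave 11 of 24 values below 0.05 before adjustment. Those 6 exons were chosen because edgeR called them on the same reads or because the study lists them, so this count is no evidence of its own. Over all events tested, 5.27% to 7.16% had an unadjusted edgeR p under 0.05 in the 4 comparisons. Most events had few reads on the skipping junction: of the 124 events not named here, 111 had under 10 such reads per mouse.

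The acceptor sites of the 8 exons with inclusion values in this report, and of the 57 bp exon that opens a run of *Eif4g1* exons, are given first, since U2AF1 reads the end of the intron at this place. Each line shows the last 20 intronic and the first 10 exonic bases, and the capitals are the last 3 bases of the intron.

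Eif4a2 exon of 140 bp: atgtatcctacttttttTAGggtatgatgt
Eif4g2 exon of 114 bp: tttctccctttctgaaaTAGgggctaagcc
Eif4g1 exon of 177 bp: gctttctgttttcctaaTAGcacttctacc
Eif4a2 late exon: agactttttaaaaaataCAGgagtcgatag
Eif4h exon of 60 bp: ttgtgtgtgtgtatcctCAGgaatgggtgg
Eif4g3 exon of 114 bp: taaaccagttttctcgaCAGcccggcagaa
Eif4g1 exon of 57 bp: ccctcacctcccaacccCAGgccttcggat
Eif4g1 exon of 87 bp: ctctggtctctccccttCAGccagcgtttc
Eif4e exon of 96 bp: atactggcttttattttCAGgtgggcactc

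The first 3 exons had a lower mean inclusion in U2AF1(S34F) than in U2AF1(WT) mice on either treatment, and their introns end in TAG. The introns before the other 6 end in CAG, and these exons did not all differ in 1 direction. The late exon of *Eif4a2*, the *Eif4h* and *Eif4g3* exons and the *Eif4g1* run had a higher mean inclusion in U2AF1(S34F) mice on either treatment. The *Eif4e* exon had a lower mean in U2AF1(S34F) mice on vehicle (0.970 against 0.985) and a higher one on the drug (0.997 against 0.992), and neither difference was called (edgeR, FDR=0.827 and 0.841). These exons were picked for their calls or from the study's list, so the split between them is no test of the base. Over all exons of the events built, 33.8% had T and 59.2% had C at the third base from the end of the intron. Among exons called as more skipped in U2AF1(S34F) mice under vehicle 74.6% of 343 had T, and among those more included 7.62% of 302 did. For the drug in U2AF1(WT) mice the shares with T were 30.6% of 134 skipped and 30.3% of 89 included exons. The letters are a description of these sites.

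*Eif4h*, the small helicase cofactor, has 2 annotated transcripts, and a 60 bp exon of 20 codons (chr5:135100311-135100370, minus strand) is exon 5 of 7 in one of them. The exon is printed because it keeps the reading frame and separates the isoforms.

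Eif4h exon of 60 bp: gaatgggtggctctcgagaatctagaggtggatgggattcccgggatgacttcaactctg

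Its Ψ was 0.625, 0.608, 0.555, 0.540 and 0.512 in vehicle-treated U2AF1(WT) mice, against 0.611, 0.652, 0.663, 0.665 and 0.680 in U2AF1(S34F) mice on vehicle. A single U2AF1(S34F) mouse lay within the U2AF1(WT) range. The difference of 0.0862 passed FDR<10% (edgeR, FDR=0.00679), with p=0.0159 in a two-sided exact permutation test of 5 against 5 mice, which cannot go below 0.00794. Under sudemycin D6 the U2AF1(WT) mice had 0.600, 0.591, 0.648, 0.671 and 0.619 and the U2AF1(S34F) mice 0.655, 0.736, 0.681, 0.678 and 0.685, a difference of 0.0611 (edgeR, FDR=0.0902). That call was lost without U2AF1(S34F) mouse 6, 9, 10 or 12 or U2AF1(WT) mouse 6, 8 or 12 (FDR of up to 0.470), and the vehicle call without U2AF1(WT) mouse 5 (0.125). The drug differences were 0.0580 in U2AF1(WT) and 0.0328 in U2AF1(S34F) mice, and neither was called (exact permutation p=0.0714 and 0.0873).

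*Eif4g2* skipped a 114 bp coding exon (chr7:118219794-118219907, minus strand) more often in U2AF1(S34F) mice. Ψ was 0.910, 0.878, 0.879, 0.883 and 0.883 in vehicle-treated U2AF1(WT) mice, against 0.853, 0.862, 0.862, 0.828 and 0.802 in U2AF1(S34F) mice on vehicle. The groups did not overlap, and the difference was -0.0454 (edgeR, FDR=0.000976, exact permutation p=0.00794, the smallest possible). Sudemycin-treated mice had 0.888, 0.873, 0.872, 0.901 and 0.917 in U2AF1(WT) and 0.870, 0.869, 0.869, 0.876 and 0.862 in U2AF1(S34F), a difference of -0.0212 that was not called (FDR=0.448, exact permutation p=0.0397). The exon had 198 to 572 skipping reads per mouse, and the genotype call under vehicle held without any 1 mouse. With the drug the mean went from 0.841 to 0.869 in U2AF1(S34F) mice, a difference of 0.0278 that was just outside the threshold (edgeR, FDR=0.101, exact permutation p=0.0238). It was called with the spread trend on total reads (FDR=0.0475) and without vehicle-treated mouse 1, 3 or 5 (0.0755, 0.0301 and 0.0176). In U2AF1(WT) mice the drug difference was 0.0036 (FDR=0.876, exact permutation p=0.762).

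*Eif4g3*, the scaffold whose level was lower in U2AF1(S34F) mice, also had a 114 bp coding exon (chr4:137640172-137640285, plus strand) that most transcripts skipped. Ψ was 0.133, 0.139, 0.080, 0.155 and 0.118 in U2AF1(WT) mice on the drug, and 0.198, 0.229, 0.139, 0.238 and 0.269 in U2AF1(S34F) mice on the drug, and the groups overlapped. The difference of 0.0896 was called (edgeR, FDR=0.0320, exact permutation p=0.0238), but not without U2AF1(S34F) mouse 6, 10 or 12 or U2AF1(WT) mouse 9 (FDR of up to 0.234). Under vehicle the means were 0.145 ± 0.0361 and 0.183 ± 0.0374 (SD, n=5), and the difference of 0.0381 was not called (FDR=0.857).

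*Eif4g1*, the main scaffold, carries near its start a run of 3 exons of 57, 94 and 87 bp, 238 bp together, which a junction jumps as a whole. The 87 bp exon (chr16:20674301-20674387, plus strand) had 0 reads joining it straight to the exon before the run in 16 of the 20 mice and at most 3 in the others. Its inclusion was therefore read from the share of reads entering the next exon that had skipped the run. The 57 bp exon is non-coding in all 4 transcripts that hold it, and the 94 bp exon holds the first coding bases in 7 of 11. The share that skipped was 6.38%, 7.24%, 12.3%, 14.7% and 7.65% in vehicle-treated U2AF1(WT) mice, against 3.18%, 4.63%, 5.41%, 6.21% and 3.42% in U2AF1(S34F) mice on vehicle. It was 5.71%, 4.98%, 5.67%, 2.92% and 6.78% in sudemycin-treated U2AF1(WT) and 3.47%, 3.86%, 1.42%, 1.02% and 2.66% in U2AF1(S34F) mice on the drug. The genotypes did not overlap under vehicle, with a difference of -5.07 percentage points (exact permutation p=0.00794). The drug differences were -4.43 points in U2AF1(WT) (exact permutation p=0.0159) and -2.08 in U2AF1(S34F) mice (0.0476). Measured instead as a share of the reads that leave the exon before the run, the genotypes overlapped under vehicle, with a difference of -5.43 points (exact permutation p=0.0159). On that measure the drug differences were -3.86 and -2.27 points (exact permutation p=0.0476 and 0.0556). As a cassette event over all tests the 87 bp exon was not called in any comparison (edgeR, FDR from 0.395 to 0.818), and the skipping junction had only 4 to 59 reads per mouse.

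**Figure D5:**
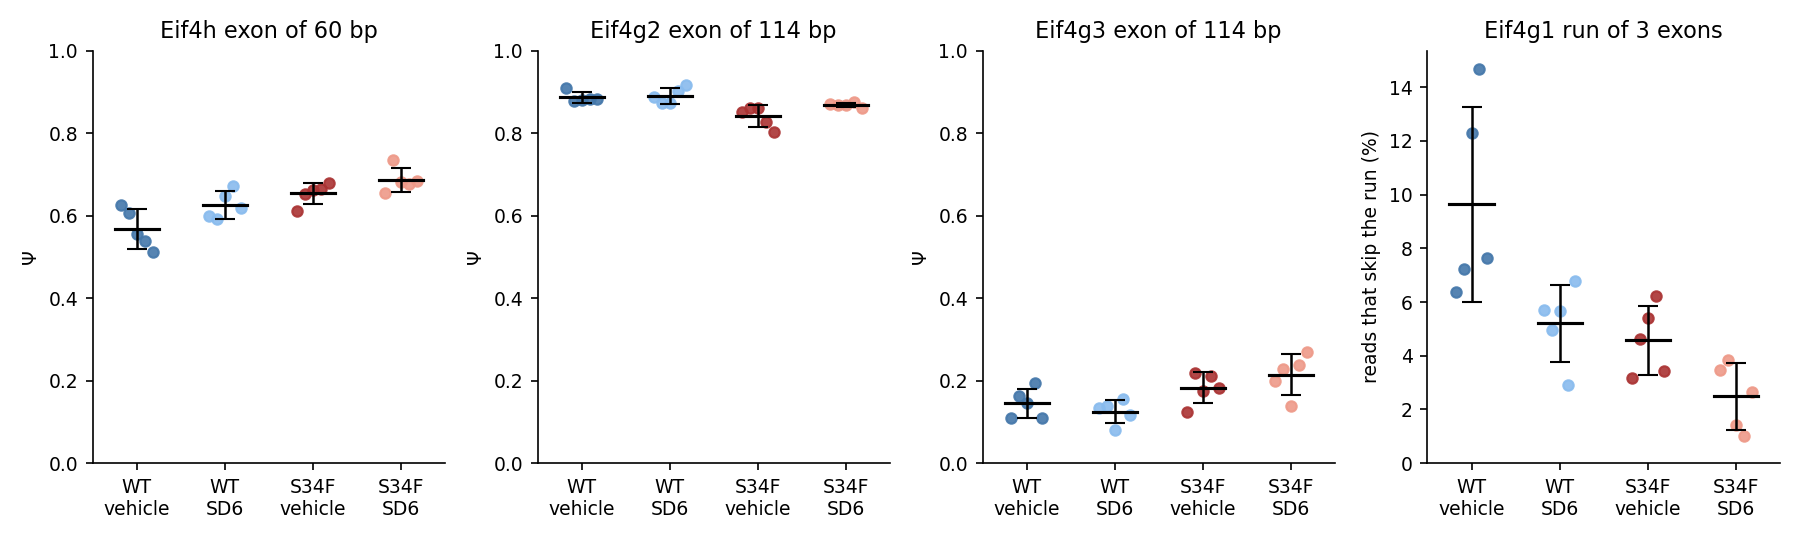
Ψ of exons of *Eif4h*, *Eif4g2* and *Eif4g3* (first 3 panels, axis 0 to 1) and the percentage of reads that skip the run of 3 *Eif4g1* exons (last panel, axis from 0) in each mouse, with the mean and SD (n=5) in black (SD6, sudemycin D6). In *Eif4g2* the vehicle-treated U2AF1(S34F) mice (0.802 to 0.862) lie below the vehicle-treated U2AF1(WT) mice (0.878 to 0.910).

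The calls of 2 more exons rested on scarce reads. Skipping of a 177 bp exon of *Eif4g1* (chr16:20675417-20675593) had 0 reads in all 10 U2AF1(WT) mice, 23, 31 and 16 reads in 3 U2AF1(S34F) mice on vehicle and 21 and 17 in 2 on the drug, with 0 in the other 5. It was called under vehicle (edgeR, FDR=0.00810) and sudemycin D6 (0.0612), with an exact permutation p of 0.167 and 0.444. The first call was lost without U2AF1(S34F) mouse 7 (FDR=0.102), and the second without U2AF1(S34F) mouse 6 or 9 or U2AF1(WT) mouse 6, 10 or 12 (up to 0.525). The 96 bp exon of *Eif4e* (chr3:138210623-138210718) had 12, 16, 2, 29 and 20 skipping reads in U2AF1(S34F) mice on vehicle, against 3, 0, 2, 4 and 2 on the drug. Its Ψ was higher with the drug by 0.0265 (edgeR, FDR=0.00590, exact permutation p=0.0159), and the call was lost without vehicle-treated mouse 7 (FDR=0.110).

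Other genes of initiation were counted in lists by role. Of the 13 eIF3 subunits, which bridge eIF4F to the ribosome, 7 were higher and 0 lower in U2AF1(S34F) mice under vehicle, and 9 and 0 under sudemycin D6, where 19.7% and 17.2% of all genes tested were higher. *Eif3e*, the subunit with the largest difference in both, rose by 0.65 and 0.66 on the log2 scale (edgeR, FDR=0.00108 and 0.000307), followed under vehicle by *Eif3m* (0.48) and *Eif3l* (0.46). The median log2 fold change of the 13 was 0.24 under vehicle, beside 0.0020 over all genes tested. With the drug 0 of 13 passed in U2AF1(WT) mice in edgeR, where 3.07% of all genes tested did. At an unadjusted p under 0.05 it was also 0 in U2AF1(WT) mice, beside 1959 of 14763 genes tested. In U2AF1(S34F) mice 1 passed, *Eif3b* (0.36, FDR=0.0408), where 10.8% of all genes tested did.

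Of 21 regulators and partners of eIF4F, 20 were tested under vehicle, and 4 were higher and 9 lower in U2AF1(S34F) mice, against 19.7% and 19.8% of all genes tested. *Eif4ebp3* (-0.90) and *Eif4ebp2* (-0.70), which hold eIF4E away from the scaffold, fell, as did *Eif4e3* (-0.67), a relative of eIF4E, and *Rptor* (-0.51), a subunit of mTORC1. *Paip1*, which binds the poly(A)-binding protein and stimulates translation, rose by 0.44. With the drug 0 of this list passed in U2AF1(WT) or U2AF1(S34F) mice in edgeR, where 3.07% and 10.8% of all genes tested did. At an unadjusted p under 0.05 it was 0 of 20 in U2AF1(WT) and 5 of 19 in U2AF1(S34F) mice. Over all genes tested it was 1959 of 14763 and 3299 of 14714. In the exon junction complex core, *Magoh* rose by 0.48 and *Magohb* by 0.45 under vehicle and *Casc3* fell by 0.53 on the log2 scale, and 1 of the 4 genes was not called, where 39.5% of all genes tested were called. Of 20 other initiation factors, 7 were higher and 2 lower under vehicle, where 19.7% and 19.8% of all genes tested were. In either direction 45% were called, beside 39.5% of all genes tested. *Eif1*, which guards the choice of the start codon, fell by 1.02 (FDR=0.000313), and it was also the 1 gene of that list that fell with the drug in U2AF1(WT) mice, by 0.52 (FDR=0.0576), where 1.89% of all genes tested fell. *Eif2s3x*, which is X-linked, fell by 0.37. With the drug in U2AF1(S34F) mice 3 of the 20 rose, where 4.94% of all genes tested did, among them *Eif5a* at 0.25 (FDR=0.0556). Stem and progenitor markers moved with the drug: 2 of 6 were lower in U2AF1(WT) and 4 of 6 in U2AF1(S34F) mice (1.89% and 5.85% of all genes tested), and in the latter their sum was 132 to 171 CPM under vehicle and 91.3 to 124 with the drug. Their part in the drug differences was not tested.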

How the data were processed

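Bulk bone marrow RNA of 20 mice was sequenced as stranded, rRNA-depleted libraries. The authors deposited a table of raw counts per Ensembl gene and a table of read counts per splice junction. The submitters' processing notes name TopHat2 version 2.0.8, SAMtools and the mouse build mm9. The program that counted reads per gene is not given in the sources used here.

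Gene counts were tested with edgeR version 4.0.16 (TMM, filterByExpr, robust quasi-likelihood) in R version 4.3.3, on the 10 mice of each comparison, with Benjamini-Hochberg FDR over all genes tested. Cassette events were built from junctions, and Ψ was the mean of the reads on both inclusion junctions over that mean plus the skipping reads. Events averaging 10 or more reads in each mouse, with reads on both isoforms, were tested with edgeR on inclusion and skipping reads, with 1 coefficient per mouse and a negative binomial dispersion of 0. An event was called at FDR below 10% and a change in Ψ above 1%. Single Ψ values were compared by two-sided exact permutation tests. CPM used TMM-scaled library sizes, and levels per kilobase used the length covered by all annotated exons of each gene together. Sequences and positions came from NCBIM37 with the GENCODE M1 annotation. The tests were checked on simulated data.

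The members and the gene lists were chosen with earlier results of these data known. All 9 genes are named, with the exons described, those of every called event and, of each pathway list, the called genes with the largest log2 fold changes. Donor marrow was pooled for each experiment, so recipients of a pool shared donors. The labels do not say which mice those were, nor which shared cages. The p-values therefore measure the spread between these mice and not between independent donors. Alternatives were DESeq2 version 1.42.0, its size factors in edgeR, no filter on low counts, limma version 3.58.1 on Ψ, an estimated dispersion, other read minimums, FDR below 5%, 1 model of all mice, a replicate block, and omission of each mouse in turn. A minimum of 1 read on each isoform, a spread trend on total reads and other junctions for the late *Eif4a2* exon were chosen after seeing the data. The fixed dispersion of the main event tests was not set in advance either. It was taken from an earlier analysis of these data, which chose it after seeing results.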

Additional observations from a re-analysis of the deposited data

Results flagged for a closer look

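In 72 groups of 5 mice checked for a mouse that stands apart, 2 were past the critical value of 0.71 for the gap to the nearest mouse over the whole range, where chance gives about 1 in 20 groups. The *Eif4b* level of vehicle-treated U2AF1(WT) mouse 2 was 339.757 CPM, with a gap of 0.793 of the range. The Ψ of the 114 bp exon of *Eif4g2* was 0.909808 in vehicle-treated U2AF1(WT) mouse 1, with a gap of 0.839 of the range.

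An *Eif4a1* junction absent from the annotation (chr11:69483774-69484186) was read in some mice and not in others. It had 0 reads in the 5 vehicle-treated U2AF1(WT) mice. It had 84, 0, 0, 4 and 0 in U2AF1(WT) mice on sudemycin D6. U2AF1(S34F) mice had 0, 0, 6, 0 and 0 on vehicle. On the drug they had 180, 0, 86, 148 and 0. The difference between groups was not tested.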

How the results depend on the processing

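Every gene and exon event called under the main settings kept its direction under each alternative run. The directions of genes and events that were not called were not compared in this way. Exon events of the 9 genes called under the main settings numbered 5 and 4 for the genotype under vehicle and sudemycin D6, and 2 and 3 for the drug in U2AF1(WT) and U2AF1(S34F) mice. They include the *Eif4a2* events around which the set was built, whose calls are no evidence, and outside that gene they were 3, 3, 0 and 1 (1.22%, 1.14%, 0.423% and 0.518% of all events tested were called). The first 4 counts were 0, 0, 0 and 0 with an estimated dispersion and 0, 0, 1 and 1 with limma on Ψ, and the cause was not tested. Under sudemycin D6 the genotype count was 2 at FDR below 5% and 2 with at least 1 read on each isoform. Genes called numbered 5, 5, 0 and 3 in the same order, where 39.5%, 36.8%, 3.07% and 10.8% of all genes tested were called. Shares over all genes are not given for the alternatives, so the counts below cannot be set against them. For the drug in U2AF1(S34F) mice the count was 6 with DESeq2 (*Eif4a2* among them), 0 at FDR below 5%, 1 with no filter on low counts and 1 in a model of all mice. For the drug in U2AF1(WT) mice it was 1 with DESeq2, which was *Eif4a2*, and 2 in a model of all mice, *Eif4a2* and *Eif4a3*, and for the genotype under sudemycin D6 it was 2 at FDR below 5%. The set was built around *Eif4a2*, so the calls of its level are no evidence either.

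With the replicate block, which used the mice whose number occurs in both genotypes, the genotype calls were 5 genes and 0 events under vehicle, and 1 gene and 2 events under sudemycin D6. Deviations of same-numbered mice from their group means had r from -0.158 to 0.319 in 7 pairs, 2 of which correlated best with their own number. Such correlations cannot show whether these mice shared a donor, cage or batch, and the main tests used no pairing.

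Leaving out 1 mouse at a time, events called ranged from 3 to 7 and from 1 to 4 for the genotype under vehicle and sudemycin D6, from 1 to 2 and from 2 to 4 for the drug in U2AF1(WT) and U2AF1(S34F) mice, and from 0 to 0 for the interaction. Genes called ranged from 4 to 6, from 2 to 6, from 0 to 1, from 0 to 5 and from 0 to 0 in that order.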

Other observations

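An unannotated *Eif4g2* junction (chr7:118218913-118219101) was as uneven as that of *Eif4a1*. It had 283, 0, 3, 2 and 0 reads in vehicle-treated and 0, 0, 0, 3 and 0 in sudemycin-treated U2AF1(WT) mice. U2AF1(S34F) mice had 4, 0, 0, 162 and 0 on vehicle and 1, 175, 2, 303 and 0 on the drug.

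In the annotation 5 snoRNAs and the opposite-strand gene *Rfc4* overlap *Eif4a2*, and 3 snoRNAs overlap *Eif4a1*. How reads in such overlaps were counted is not given in the sources used here. Reads on junctions other than annotated pairs made up 2.63% and 2.72% of *Eif4a2* junction reads on vehicle and on the drug in U2AF1(WT), and 2.49% and 2.97% in U2AF1(S34F) mice.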
